A study of Mus musculus with 5 samples.

Results

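Globin and erythroid genes were examined in 5 mouse forelimb libraries. The set held 10 genes of 23284 gene symbols, namely the beta-like globins Hbb-y, Hbb-bh1, Beta-s, Hbb-b1 and Hbb-b2, the alpha-like globins Hba-x, Hba-a1 and Hba-a2, the heme enzyme gene Alas2 and the transcription factor gene Klf1, and it was chosen by name. The mutant group was Hoxa13-/-;Hoxd13-/- at E11.5, on a mixed C57BL/6 and CD1 background. Its Hoxa13 allele carries a neomycin cassette within the coding sequence, and its Hoxd13 allele is interrupted by a lacZ reporter in its opening exon. The wild-type group was E11.5 tissue of the same mixed background without these alleles. Both E11.5 groups were micro-dissected distal forelimb, with 2 independent pools and so 2 libraries per genotype (the labels give N = 4 tissue samples for the pools). The last group was 1 library of E10.5 forelimb bud with the strain label CD1, for which the labels give no genotype. Counts in genes totalled between 45115494 and 84172202 per library. Levels are given as CPM, counts scaled to 1000000 counts in genes. Hoxd13 had 47.7 and 40.0 CPM in the mutant, against 247 and 246 CPM in wild type and 55.0 CPM at E10.5. Hoxa13 had 48.0 and 39.8 CPM in the mutant, against 50.8 and 47.2 CPM in wild type and 5.38 CPM at E10.5. Both alleles are insertions, so counts from outside the interrupted part check neither label, and which part was counted was not tested.

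Globin genes are used by red blood cells and their precursors, which reach the limb bud through its vessels. In the mouse embryo the first, primitive red cells come from the yolk sac and carry the embryonic chains encoded by Hbb-y (epsilon-y), Hbb-bh1 (beta-h1) and Hba-x (zeta). While they mature, beta-h1 gives way to epsilon-y and zeta to the adult alpha chains, and later red cells from the fetal liver carry adult beta and alpha chains. Globin counts from limb tissue are thus a reading of the blood it held. In such bulk tissue fewer cells of a type and less RNA per cell cannot be told apart.

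Only 6 of the 10 genes could be measured. Hba-a1, Hbb-b1 and Hbb-b2 had 0 counts in all 5 libraries, and Hba-a2 had a single count, in wild-type replicate 2. A count of 0 allows up to 0.0356 CPM in the deepest library and up to 0.0665 CPM in the shallowest, but only of reads the authors' counting could assign to that symbol. Hba-a1 and Hba-a2 encode the adult alpha chain from neighbouring copies, and their coding parts differ at 1 of 429 bases in GENCODE release M21 (GRCm38). That release names the adult beta copies of the C57BL/6J reference Hbb-bs and Hbb-bt, which differ at 1 of 444 coding bases, and RefSeq's genes for assembly GRCm38.p6 list Beta-s as an older name of Hbb-bs. Hbb-b1 and Hbb-b2 name the adult copies of another haplotype of the locus. The stretches around the differing base are shown because they let a reader see how little the adult copies differ and how much the embryonic genes do. They are 5′ to 3′, coding bases 351 to 411 on chromosome 11 (alpha) and 387 to 444 on chromosome 7 (beta), with capitals where a copy differs from its twin or an embryonic gene differs from Hba-a1 or Hbb-bs.
Hba-a1: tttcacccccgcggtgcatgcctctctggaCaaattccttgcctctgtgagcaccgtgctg
Hba-a2: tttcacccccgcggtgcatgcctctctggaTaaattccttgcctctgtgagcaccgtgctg
Hba-x: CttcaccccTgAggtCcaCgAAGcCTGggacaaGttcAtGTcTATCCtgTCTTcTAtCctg
Hbb-bs (Beta-s): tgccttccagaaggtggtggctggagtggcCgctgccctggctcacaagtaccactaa
Hbb-bt: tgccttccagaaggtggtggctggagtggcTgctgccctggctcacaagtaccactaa
Hbb-y: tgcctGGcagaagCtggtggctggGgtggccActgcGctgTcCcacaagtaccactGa
Hbb-bh1: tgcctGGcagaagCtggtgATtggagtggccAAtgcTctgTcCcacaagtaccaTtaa

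In the stretches shown Hba-x differs from Hba-a1 at 27 of 61 bases, while Hbb-y and Hbb-bh1 differ from Hbb-bs at 9 and 11 of 58. Each read was 50 bases long, so runs of 50 bases were compared over all GENCODE transcripts of both strands. The libraries were paired-end, and the reads of a pair were not considered together here. Of the 380 such runs in the coding part of Hba-a1, 331 (87.1%) also occurred in Hba-a2. Of the 395 in the coding part of Hbb-bs, 367 (92.9%) also occurred in Hbb-bt. Hbb-y, Hbb-bh1, Hba-x and Klf1 shared 0 runs with another gene. Over the whole Hba-a1 transcript 439 of 650 runs were shared, which leaves runs of its own that nevertheless gave no count, and why was not tested. The total given for reads without a unique alignment was between 9.10% and 14.8% of the sum of gene counts and totals. Between 684743 and 1599016 per library were given as ambiguous. Whether adult globin reads are in either total was not tested. Beta-s shares most of its sequence with a copy, so its counts are uncertain and cover only the reads given to this symbol. Alas2 shared 275 of its 1988 runs, mostly with Apex2.

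The embryonic beta-like gene Hbb-bh1 was higher in the mutant. It had 622 and 641 CPM in the mutant libraries, against 356 and 358 CPM in wild type and 980 CPM at E10.5. The mutant libraries lay above both wild-type libraries and below the E10.5 library, and libraries of a genotype lay close together. The mean was 631 ± 13.4 CPM in the mutant and 357 ± 1.21 CPM in wild type (SD, n = 2 each). The fold change, mutant over wild type, was 1.75 (log2 0.81, SE 0.08, edgeR quasi-likelihood adjusted p = 0.000121, adjusted over all genes).

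Hbb-y, which encodes the main beta-like chain of primitive red cells at these stages, had the highest level of the set. It had 2095 and 2100 CPM in the mutant, against 1841 and 1752 CPM in wild type and 1761 CPM at E10.5. The E10.5 library lay between the wild-type libraries. The log2 fold change of Hbb-y was 0.21 (SE 0.09) and did not pass the edgeR test (adjusted p = 0.214). Of the alternatives tried, it passed only without wild-type replicate 1 (edgeR adjusted p = 0.0404).

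Hba-x, the zeta chain that pairs with embryonic beta-like chains, differed between the mutant libraries. It had 230 and 164 CPM in the mutant, against 153 and 155 CPM in wild type and 596 CPM at E10.5. Mutant replicate 1 stood apart, while mutant replicate 2 lay just above wild type. The log2 fold change was 0.34 (SE 0.13, edgeR adjusted p = 0.162). It was 0.57 without mutant replicate 2 (adjusted p = 0.00284), 0.07 without mutant replicate 1 (adjusted p = 0.925), and with no filter on low counts the adjusted p was 0.0143.

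Beta-s, the adult beta-globin symbol that could be measured, moved the other way. It had 18.7 and 20.5 CPM in the mutant, against 60.6 and 60.2 CPM in wild type and 13.8 CPM at E10.5. Mutant levels lay close to the E10.5 level and far below both wild-type libraries. The E10.5 library has another strain label (CD1), so nothing about stage is read from that closeness. The mean was 19.6 ± 1.25 CPM in the mutant and 60.4 ± 0.286 CPM in wild type (SD, n = 2 each), a fold change of 0.321 (log2 -1.64, SE 0.10, edgeR adjusted p = 1.72e-06). The labels give the same mixed background for both genotypes and do not say whether the pools carried the same haplotypes of the beta-globin locus. Haplotype and copy number can change how many reads reach this symbol, and their part in the result was not tested.

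Alas2 and Klf1 stand outside the globin loci and report on red cell precursors. Alas2 makes the enzyme of the first step of heme synthesis in erythroid cells. Its level was 48.9 and 50.7 CPM in the mutant, against 40.8 and 37.7 CPM in wild type and 39.9 CPM at E10.5. The log2 fold change of 0.33 (SE 0.09) had an edgeR adjusted p of 0.0538. It passed the threshold with no filter (0.0346) and without wild-type replicate 1 (0.0270). Klf1, which activates adult beta-globin and many other erythroid genes, was low throughout. It had 3.23 and 3.08 CPM in the mutant, against 2.13 and 2.56 CPM in wild type and 6.17 CPM at E10.5. With counts between 96 and 193 in the E11.5 libraries, its log2 fold change of 0.41 (SE 0.23) had an edgeR adjusted p of 0.364.

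**Figure D1:**
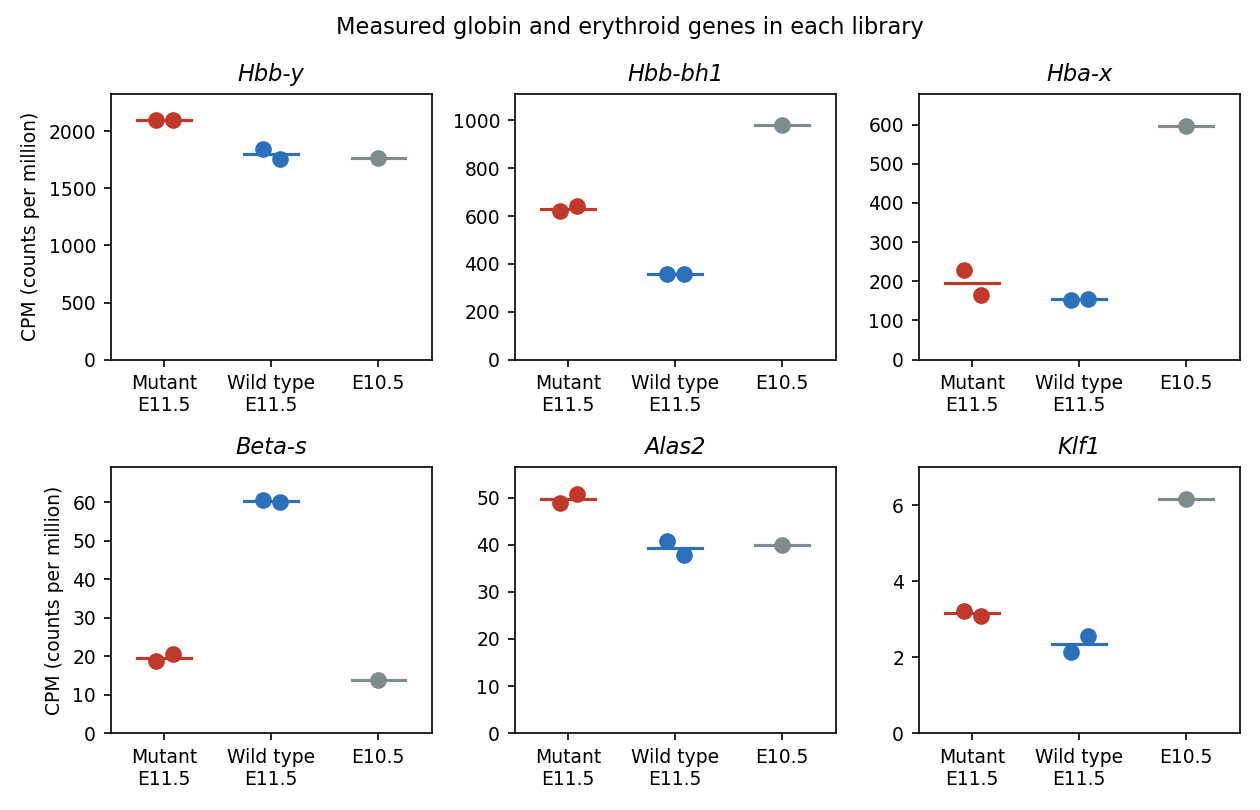
CPM (vertical axis, linear, from 0) of the 6 measured genes in each library, with points for libraries and a bar for the group mean. Hbb-bh1 was higher and Beta-s lower in both mutant libraries than in both wild-type libraries, while Hba-x was split between the mutant libraries (230 and 164 CPM).

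Among the 6 measured genes Hbb-bh1 rose and Beta-s fell in the mutant. Of all 16166 genes tested 3.82% rose and 3.34% fell. The remaining 4 had log2 fold changes between 0.21 and 0.41 without passing the test. By edgeR 5 of the 6 had an unadjusted p below 0.05. The shares of all genes given here are for the adjusted threshold, so nothing is read from that count. Hbb-bh1 and Beta-s passed under every alternative tried, with a log2 fold change between 0.78 and 0.84 for Hbb-bh1 and between -1.70 and -1.58 for Beta-s when a library was left out. The number of risen genes in the set was 3 without wild-type replicate 1 and 2 without mutant replicate 2.

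The make-up of the beta-like counts does not depend on library size. The coding parts of the beta-like genes are all 444 bases long, so coding length does not set their counts apart. Of the 395 runs of 50 bases in the coding part of Hbb-bs (Beta-s), however, 367 also occurred in Hbb-bt. The Beta-s share thus covers only the reads given to this symbol and is not a share of the beta-like RNA. Hbb-bh1 gave 22.7% (exact 95% interval 22.5 to 22.9%) and 23.2% (23.0 to 23.4%) of the beta-like counts in the mutant libraries. In wild type it gave 15.8% (15.6 to 16.01%) and 16.5% (16.3 to 16.7%), and at E10.5 35.6% (35.4 to 35.8%). These intervals cover counting error only. The mutant share thus lay between that of wild type and that of E10.5, and the gap between genotypes was larger than the gap between libraries of a genotype. For 2 libraries against 2 an exact permutation test cannot go below p = 0.333 (two-sided), so none of these shares was tested.

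Hbb-y took up the rest, with 76.6% and 76.1% of the beta-like counts in the mutant, 81.5% and 80.7% in wild type and 63.9% at E10.5. Beta-s gave 0.683% and 0.741% in the mutant, 2.68% and 2.77% in wild type and 0.500% at E10.5. Set against Hbb-bh1, there were 30.1 and 31.9 Beta-s counts per 1000 Hbb-bh1 counts in the mutant, 170 and 168 in wild type and 14.1 at E10.5. The mutant libraries lay between wild type and E10.5, an order that the shares already fix. For the alpha-like side, Hba-x gave 8.39 and 5.94 counts per 100 beta-like counts in the mutant, 6.78 and 7.13 in wild type and 21.6 at E10.5. Here the genotypes overlapped and only the E10.5 library stood apart.

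**Figure D2:**
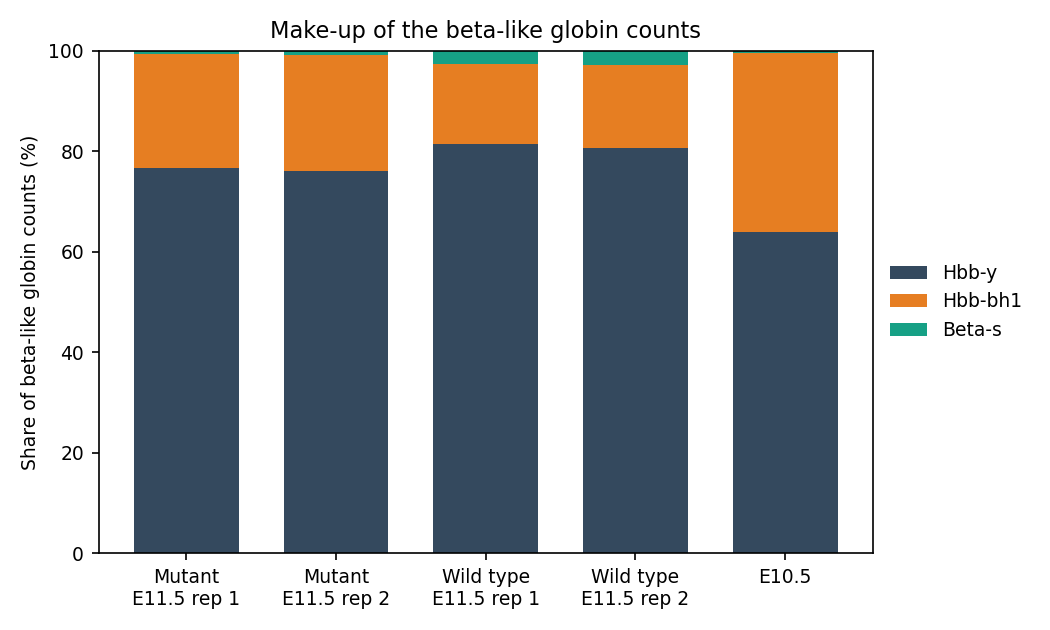
Share (percent, vertical axis) of the beta-like globin counts from Hbb-y, Hbb-bh1 and Beta-s in each of the 5 libraries, as stacked bars. Hbb-bh1 gave 22.7% and 23.2% in the mutant, 15.8% and 16.5% in wild type and 35.6% at E10.5.

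The 4 measured globins together made up 0.296% and 0.293% of the counts in genes in the mutant, 0.241% and 0.233% in wild type and 0.335% at E10.5. The genotypes did not overlap. For 2 libraries against 2 this order cannot go below p = 0.333 in an exact permutation test (two-sided), and its share over all genes was not counted. Read against Alas2, Slc4a1 and Klf1, the globins did overlap between the genotypes. No other red cell gene was used in this way. Per count of Alas2 there were 60.6 and 57.6 globin counts in the mutant, 59.1 and 61.6 in wild type and 84.0 at E10.5. Per count of Slc4a1, the band 3 anion exchanger of the red cell membrane, there were 53.7 and 61.8 in the mutant, 54.6 and 62.5 in wild type and 52.8 at E10.5. Per count of Klf1 there were 919 and 948 in the mutant, 1133 and 908 in wild type and 543 at E10.5. All 3 ratios overlapped between the genotypes. Single globins behaved differently on this scale. Per count of Alas2, Hbb-bh1 had 12.7 and 12.6 counts in the mutant, 8.74 and 9.48 in wild type and 24.6 at E10.5. Beta-s had 0.382 and 0.403 in the mutant, 1.48 and 1.59 in wild type and 0.345 at E10.5. Hbb-y was slightly lower per count of Alas2 in the mutant (42.9 and 41.4) than in wild type (45.1 and 46.4), the opposite order from its CPM.

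Stage, dissected part and strain label all change together between E10.5 and E11.5, and E10.5 has no replicate, so the stage comparison is a description. A gene was called when both wild-type E11.5 libraries differed from the E10.5 library by at least 2-fold the same way, on log2 CPM scaled with TMM (prior count 2). Of 16738 genes 12.9% were called higher and 3.86% lower at E11.5. Among the 6 measured genes 1 was called higher and 3 lower. Beta-s was higher in wild-type E11.5, by 1.88 and 1.91 on the log2 scale. Hba-x was lower by 2.19 on average (log2 difference -2.19), Hbb-bh1 by 1.69 (-1.69) and Klf1 by 1.62 (-1.62). Hbb-y (-0.21) and Alas2 (-0.26) stayed within 2-fold. Under library totals alone the median of all genes moved from 0.02 to 0.25, and the Hbb-y difference became 0.03 and that of Alas2 -0.02, so neither has a direction here. The 4 calls of the set held under that scaling. The mutant and stage comparisons share the wild-type libraries, so their values are set side by side and no agreement between them is read.

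**Figure D3:**
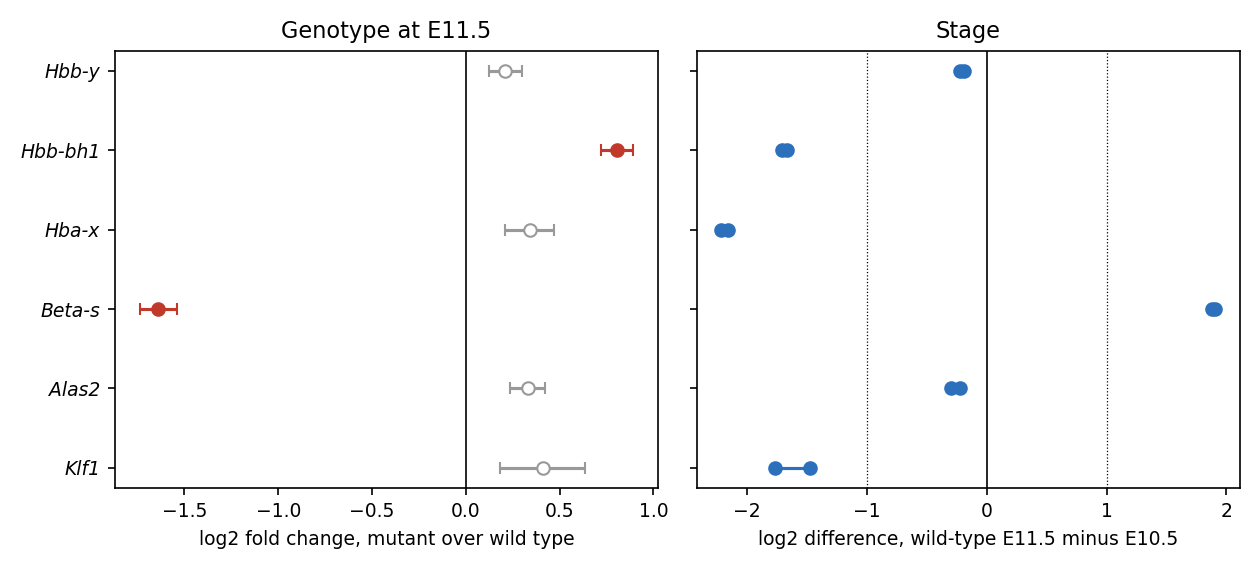
Left, log2 fold change of the 6 measured genes in the mutant over wild type at E11.5, with bars for the standard error and filled red points for genes that passed the test. Right, log2 difference of each wild-type E11.5 library from the E10.5 library (2 points per gene), with dotted lines at 2-fold; Beta-s lies at 1.88 and 1.91 and Hba-x at a mean of -2.19.

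Promoters of 3 of the 4 measured globins are shown because Hbb-y and Hba-x, both embryonic, can be set beside the adult Hbb-bs, whose Beta-s counts fell in the mutant. The sequences are those of RefSeq for GRCm38.p6, from 250 bases before to 50 after the start of the gene, 5′ to 3′ on the gene's strand. The table matched 6 of the 10 symbols directly (Hbb-y, Hba-x, Hba-a1, Hba-a2, Alas2 and Klf1) and Beta-s as Hbb-bs. Hbb-bh1, Hbb-b1 and Hbb-b2 were not matched. Capitals mark matches, on either strand, to 6 short motifs. CCACCC is one form of the CACCC box, the element Klf1 binds, and the longer CACACCC is another. AGATAA is a form bound by GATA factors. CCAAT is a common promoter element near the start. ATAAA and the longer form ATATAA are variants of the TATA box, and their matches overlap in Hba-x.
Hbb-y, chr7:103853158-103853457, minus strand: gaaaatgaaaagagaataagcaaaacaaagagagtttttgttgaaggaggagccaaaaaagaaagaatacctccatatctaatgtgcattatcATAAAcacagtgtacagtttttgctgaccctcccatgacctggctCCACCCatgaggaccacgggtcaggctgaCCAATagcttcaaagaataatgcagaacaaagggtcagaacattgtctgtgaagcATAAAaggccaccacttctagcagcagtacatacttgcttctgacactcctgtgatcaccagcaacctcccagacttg
Hba-x, chr11:32276350-32276649, plus strand: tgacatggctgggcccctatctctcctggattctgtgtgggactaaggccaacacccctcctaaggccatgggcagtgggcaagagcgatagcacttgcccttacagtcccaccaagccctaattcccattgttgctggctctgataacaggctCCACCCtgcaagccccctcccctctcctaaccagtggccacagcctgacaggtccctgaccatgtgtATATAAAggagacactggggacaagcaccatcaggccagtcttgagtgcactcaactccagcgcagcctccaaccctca
Hbb-bs (Beta-s), chr7:103827879-103828178, minus strand: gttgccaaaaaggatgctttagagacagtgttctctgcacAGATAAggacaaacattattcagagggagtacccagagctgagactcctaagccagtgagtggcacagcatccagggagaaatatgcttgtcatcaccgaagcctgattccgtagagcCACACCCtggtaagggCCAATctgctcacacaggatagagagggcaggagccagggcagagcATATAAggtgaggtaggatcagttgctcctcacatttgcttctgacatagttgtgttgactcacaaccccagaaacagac

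The CACCC form differed between them. CCACCC stood 112 bases before the start in Hbb-y and 96 bases before it in Hba-x, while CACACCC stood 92 bases before it in Hbb-bs. Of 32851 promoters of this length 31.5% held CCACCC and 7.95% held CACACCC. Of the promoters shown AGATAA was found in Hbb-bs only, 210 bases before the start, and in 11.2% of all promoters. No other GATA form was searched. TGATAA, which differs at the first base, stands in the Hba-x stretch shown and on the other strand of the Hbb-y stretch. No contrast in GATA sites between these promoters is read. CCAAT stood 83 bases before the start in Hbb-y and 76 before it in Hbb-bs, and 37.4% of promoters held it. A TATA form lay 28, 29 and 30 bases before the start in Hbb-y, Hba-x and Hbb-bs, where ATAAA was held by 40.0% and ATATAA by 9.82% of promoters. A match is a description of these letters and does not show binding.

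In the wider erythroid programme a few genes changed, in both directions. The 7 lists held 100 further genes, of which 96 were tested, 5 rose (among them Cldn13, which passed the filter on low counts only through the mutant libraries) and 6 fell, and 52 had a log2 fold change above 0 (54.2%, against 49.8% of all genes). Their median was 0.03, against -0.000819 for all genes. Without wild-type replicate 1 the number of risen genes was 10, and with no filter on low counts it was 11. The 5 and 6 of 96 stand beside a background of 3.82% risen and 3.34% fallen, and nothing particular to the lists is read from them.

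Of 18 erythroid transcription factor genes Hemgn rose and 4 fell. Bcl11a, the repressor of embryonic beta-like globin genes in mouse red cells, had 51.9 and 53.2 CPM in the mutant, against 93.7 and 74.0 CPM in wild type and 33.2 CPM at E10.5 (log2 fold change -0.68, SE 0.11, edgeR adjusted p = 0.00186). Bcl11a is also used by other cells, and which cells of the limb gave these counts was not tested. Hemgn, an erythroid nuclear protein, had 12.1 and 13.02 CPM in the mutant, against 7.47 and 6.86 CPM in wild type and 15.9 CPM at E10.5 (0.80, SE 0.14, adjusted p = 0.00428). Lmo2, a bridging partner of Tal1 and Gata1, fell (-0.54, adjusted p = 0.00578). It had 25.3 and 24.6 CPM in the mutant, against 37.5 and 34.5 CPM in wild type. Myb (-0.45, adjusted p = 0.0485) and E2f2 (-0.48, adjusted p = 0.0479) fell by a narrow margin. Which cells of the limb gave the Lmo2, Myb and E2f2 counts was not tested. Myb lost its call without either mutant replicate (0.0690 and 0.424) or without wild-type replicate 2 (0.0608), and E2f2 lost it without mutant replicate 2 (0.335) or wild-type replicate 1 (0.0965). Both also lost it under library totals alone (0.0710 for Myb and 0.0921 for E2f2), under RLE factors (0.0510 and 0.0513) and with the filter of at least 1 CPM in 2 libraries (0.0536 and 0.0570). The other 13 did not pass and lay on both sides of 0, between -0.84 for Gata2 and 0.54 for Gata1. Klf3 had -0.33 (adjusted p = 0.207) and Gfi1b -0.52 (adjusted p = 0.568). Gata1, the central erythroid factor, had 2.77 and 2.65 CPM in the mutant, against 1.68 and 2.01 CPM in wild type, with an adjusted p of 0.248. Its partner Tal1 had 7.99 and 6.62 CPM in the mutant, against 5.14 and 5.37 CPM in wild type (adjusted p = 0.154).

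Heme and iron genes showed single changes. Of 15 genes of heme synthesis and mitochondrial import 1 rose and 1 fell. Alad, which makes porphobilinogen, had 34.5 and 30.4 CPM in the mutant, against 60.4 and 57.4 CPM in wild type and 65.8 CPM at E10.5 (-0.87, SE 0.10, adjusted p = 0.000215). Tmem14c, a mitochondrial porphyrin transporter, had 67.7 and 71.5 CPM in the mutant, against 40.4 and 44.5 CPM in wild type and 38.8 CPM at E10.5 (0.70, SE 0.10, adjusted p = 0.000985). Both are also used outside red cells. Of 13 iron genes Trf, which encodes transferrin, rose (0.82, adjusted p = 0.0202), a call that ended without mutant replicate 2 (0.107).

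Of 21 red cell membrane genes tested 17 had a log2 fold change above 0, with a median of 0.29, and 2 rose and 0 fell. Among all genes tested 49.8% lay above 0, 3.82% rose and 3.34% fell. Cldn13 is counted in the 17, in the 2 and in the median, and nothing particular to the list is read from them. Slc4a1 had 55.2 and 47.3 CPM in the mutant, against 44.1 and 37.2 CPM in wild type (adjusted p = 0.110). The risen genes were Rhd and Cldn13. Rhd, of the Rh blood group family, rose by 0.63 (adjusted p = 0.0381) and lost its call without either mutant replicate (0.239 and 0.0989) or without wild-type replicate 2 (0.0652), and under library totals alone (0.0572). Cldn13, a claudin gene, had 44 and 39 counts in the mutant libraries, 0 in both wild-type libraries and 77 at E10.5. Against a floor of 3 counts over the wild-type group it was at least 25.8-fold higher in the mutant. It passed the filter on low counts only through the mutant libraries, so it had to differ, and its call is a description and no support for the list. Under a filter of at least 1 CPM in 2 libraries it was not tested. The list's median stayed at 0.29 with Cldn13 set at that bound. It had to, because Cldn13 lies above the median at either value, so this is no check of the list.

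The other lists added a single call. Of 11 genes of erythropoietin and Kit signalling Kit, the stem cell factor receptor, fell. It had 11.05 and 10.3 CPM in the mutant, against 21.9 and 21.4 CPM in wild type and 16.1 CPM at E10.5 (-1.03, SE 0.12, adjusted p = 0.000229). Which cells of the limb gave the Kit counts was not tested. Epor, the erythropoietin receptor, had 2.34 and 2.34 CPM in the mutant, against 2.57 and 2.92 CPM in wild type (adjusted p = 0.636). Of 13 tested genes of red cell enzymes and globin partners 0 passed the edgeR test. An unadjusted p below 0.05 was reached by 6 of the 13, a count without the share of all genes, from which nothing is read. By DESeq2 Ube2l6 alone passed (log2 fold change 0.59, adjusted p = 0.0437). The genes of highest level in this list were Prdx2, the red cell peroxiredoxin, at -0.10, and Bnip3l, needed to clear mitochondria, at 0.22. Of the 5 tested globin-like genes 0 passed it either (0 with an unadjusted p below 0.05, 0 by DESeq2), Cygb (0.17) and Hbq1b (0.06) among them.

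**Figure D4:**
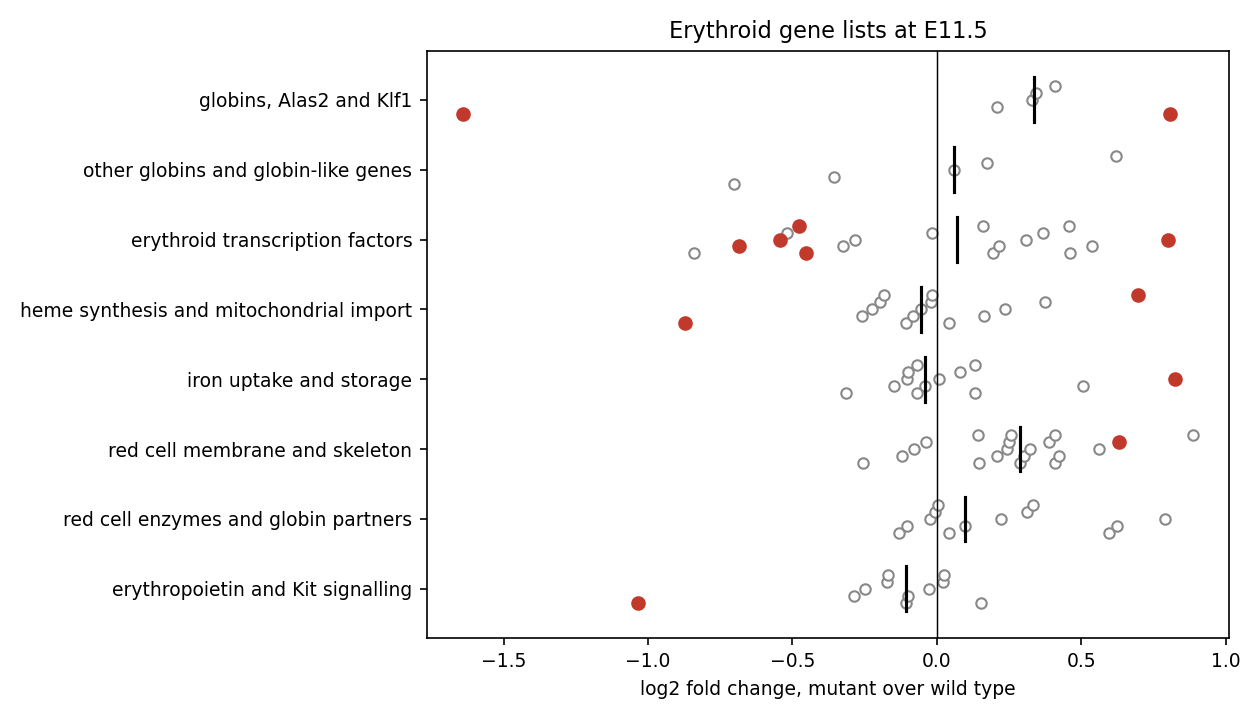
Log2 fold change, mutant over wild type at E11.5, of each tested gene in 8 lists (rows), with filled red points for genes that passed the test and a black tick at each list's median. Cldn13 is not drawn because it had no wild-type count, but it is included in its list's median. The red cell membrane list has the highest median of the 7 wider lists, 0.29.

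Between stages, of 18 transcription factor genes Tal1, Zfpm1, Gfi1b and Hemgn were called lower in wild-type E11.5 and Sox6 and Runx1 higher, beside 3.86% lower and 12.9% higher among all genes. Sox6, which silences epsilon-y in definitive red cells, had 54.3 and 52.6 CPM in wild-type E11.5 and 16.4 CPM at E10.5. In the same wild-type libraries Gata1 had 1.68 and 2.01 CPM, and which cells of the limb gave the Sox6 counts was not tested. Of 14 genes of red cell enzymes and globin partners 1 was called higher (Fam46c) and 1 lower (Pklr). Fam46c had 5.81 and 6.25 CPM in wild-type E11.5 and 2.40 CPM at E10.5. Pklr, the red cell pyruvate kinase gene, had 0.909 and 1.24 CPM in wild-type E11.5 and 7.73 CPM at E10.5. None of the 15 heme genes was called at 2-fold, in iron handling 3 of 13 were lower (Steap3, Fth1 and Pcbp1), and of 21 membrane genes Cldn13 was lower. Bcl11a was higher in both wild-type libraries (93.7 and 74.0 CPM) than at E10.5 (33.2 CPM), but was not called.

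Marker lists of other cells were read beside these values, with 3.82% of all tested genes risen, 3.34% fallen and 49.8% above 0 as the background. Of 11 forelimb mesenchyme genes Prrx1 and Grem1 rose and Prrx2, Lhx9, Msx1, Twist1 and Hand2 fell. Tbx5, which marks forelimb, had 83.5 to 101 CPM in the mutant, 85.8 to 88.0 CPM in wild type and 67.0 CPM at E10.5, while the hindlimb marker Pitx1 was at or below 0.399 CPM in every library. The other hindlimb-list genes were counted throughout. Tbx4 had 10.4 and 8.90 CPM in the mutant, 8.29 and 7.70 CPM in wild type and 5.81 CPM at E10.5, and Isl1 had 1.92 and 1.16 CPM in the mutant, 1.73 and 1.74 CPM in wild type and 0.891 CPM at E10.5. None of the 3 hindlimb genes and none of the 4 tested liver and yolk sac genes passed the edgeR test, with 0 at an unadjusted p below 0.05 and 0 by DESeq2. Of the liver markers Alb had 0 counts in the mutant and at most 4 in wild type, and Afp had 0 in all E11.5 libraries and 12 counts at E10.5. Others in the list went the other way from Alb, and 3 of the 4 tested had a log2 fold change above 0. Apoa2 had 9 and 18 counts in the mutant, 0 and 3 in wild type and 0 at E10.5. Apob had 22 and 28 counts in the mutant, 9 and 16 in wild type and 165 at E10.5. Between stages Apob was called lower and Cubn higher in wild-type E11.5. Among 11 platelet and megakaryocyte genes 0 rose and 1 fell (Ppbp), and their summed level was 40.2 and 43.0 CPM in the mutant, 49.0 and 41.0 CPM in wild type and 24.1 CPM at E10.5. Among 13 macrophage genes 2 rose (Lyz2 and Mrc1) and 0 fell, with 12 above 0 and a summed level of 95.3 and 93.2 CPM in the mutant, 63.5 and 79.0 CPM in wild type and 18.6 CPM at E10.5. Among 13 endothelial genes Flt1 rose and Erg fell, and the summed level was 328 and 299 CPM in the mutant, 288 and 290 CPM in wild type and 340 CPM at E10.5. The part of macrophage or vessel content in the globin values was not tested.

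The genes around the globin clusters were also read. Of the 30 RefSeq genes next to the alpha cluster (15 on each side) 12 were tested and 0 passed the edgeR test (0 with an unadjusted p below 0.05, 0 by DESeq2), among them Nprl3, whose introns hold the alpha-globin enhancers, at -0.02 (adjusted p = 0.963). Of the 30 next to the beta cluster 28 were olfactory receptor genes or pseudogenes, no neighbour had more than 5 counts in a library, and none could be tested.

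Likeness of pattern was measured as the root mean square difference of log2 CPM, centred on each gene's mean over the 5 libraries, among 9565 genes with a mean of at least 10 CPM. The genes closest to the sum of the globins were 1110020G09Rik, Arhgap19 and Nckap1 (0.03 each) and Gen1 and Pde3b (0.04 each). The sum itself had a root mean square of 0.20 around its own mean. Closest to Beta-s, whose own value was 0.90, was Sgk1 (0.06), with 14.3 and 14.5 CPM in the mutant, 43.0 and 41.5 CPM in wild type and 9.28 CPM at E10.5. Next came Cdc42ep3 (0.19), 1190002N15Rik (0.20), Jag1 (0.20) and Thsd4 (0.21). Closest to Hbb-bh1, whose own value was 0.56, were Crabp1 (0.10), Fign (0.11), Hemgn, Pip4k2a and Lix1 (0.13 each), a comparison chosen after its values were seen.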

How the data were processed

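Each library has 1 deposited table, in which the authors give a raw count for every gene symbol, made from stranded, ribosomal RNA-depleted, paired-end libraries of 50 cycles, per the labels' protocols. TopHat2 2.0.13, Cufflinks 2.1.1, HTSeq, SAMtools and the mm9 genome are named in the submitters' processing notes. The annotation and strand setting of the counting are not given in the sources used here. The 5 HTSeq total lines entered neither library sizes nor tests.

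CPM was computed from library totals. Mutant and wild type were compared on the 4 E11.5 libraries with edgeR 4.0.16 in R 4.3.3 (filterByExpr, minimum count 10 and minimum total 15, TMM scaling with factors of 0.977 to 1.01, quasi-likelihood F test, Benjamini-Hochberg over all genes, threshold 0.05). Where nothing shows that pools came from separate litters, p-values measure the spread between these pools. E10.5 has 1 library and no test. DESeq2 1.42.0, other scalings, other filters, a replicate block and leaving out each library were tried. The fit was tested on simulated data.

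Genes were named by rule: all 10 genes of the set, and in each list those past the threshold, up to 6, or else the 2 of highest mean CPM. Gata1, Tal1, Gata2, Klf3, Gfi1b, Ube2l6, Slc4a1, Epor, Nprl3, the tissue markers and the genes named for stage alone fall outside it and were chosen after their values were seen. The genes of the set and the lists were chosen with earlier results of these data known. Lists were matched by symbol or older symbol, and Ahsp is not analysed here. Coding lengths came from GENCODE M21 (GRCm38) in place of protein sequences. No coordinates were carried between mm9 and GRCm38.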

Additional observations from a re-analysis of the deposited data

How the results depend on the processing

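With no filter on low counts 959 genes, 3 of the set and 11 of the wider erythroid lists rose, against 617, 1 and 5. With library totals alone 412 genes were 2-fold lower in wild-type E11.5 than at E10.5, against 646. Per coding length Hba-x had 22.4 counts per 100 beta-like counts at E10.5, against 21.6. When a library was left out, between 410 and 1113 genes rose and between 373 and 905 fell. The highest of each came without wild-type replicate 1 and the lowest without a mutant replicate. In the set 1 to 3 rose and 1 fell, and in the wider lists 4 to 10 rose and 4 to 6 fell. Between stages 872 to 985 genes were lower (the 985 without wild-type replicate 1) and 2446 to 2809 higher when a wild-type library was left out. Between genotypes none of the 6 measured genes changed direction under any alternative tried. Summing the adult beta symbols returned the Beta-s counts, since Hbb-b1 and Hbb-b2 had 0. Causes were not tested.

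The labels give both genotypes replicate numbers 1 and 2 but do not say that a number pairs pools, and the deviations of same-numbered libraries had a correlation of -0.02 over 16166 genes. With the replicate block 676 genes rose and 576 fell, and in the set 2 rose, Alas2 among them (adjusted p = 0.0483). Fits without a library leave a genotype with 1 library, which is assumed to vary like the other genotype. Depth limits Klf1 and Cldn13, and the copies of adult globins limit Beta-s.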

Other observations

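Beyond the olfactory receptor genes after the beta-globin cluster lies a group of Trim genes, chosen after their values were seen. Trim12a, of the Trim5 family of antiviral factors, is the 36th gene after Hbb-y in the RefSeq order of chromosome 7. It had 207 and 138 counts in the mutant libraries, 19 and 12 in wild type and 10 at E10.5 (log2 fold change 3.33, SE 0.35, edgeR adjusted p = 0.000114). Trim34a, 32 genes after Hbb-y, had 92 and 88 counts in the mutant, 46 and 45 in wild type and 36 at E10.5 (0.87, adjusted p = 0.116). Trim6, 30 genes after it, had 381 and 298 counts in the mutant, 190 and 243 in wild type and 782 at E10.5 (0.53, adjusted p = 0.0961). Trim12c, 40 genes after it, had -0.12 (adjusted p = 0.679). Whether these values and that of Beta-s go with the haplotype of this stretch of chromosome 7 in the pools was not tested.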
